A study of Oryza sativa and Triticum aestivum and Oryza sativa Japonica Group with 26 samples.

Results

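The 6 genes described here encode core subunits of Polycomb repressive complex 2 (PRC2) in rice. The selection rule lists them by locus ID and uses no measured value. All 6 were found among the 55986 gene IDs of the RNA count table. The members are OsCLF (LOC_Os06g16390), OsiEZ1 (LOC_Os03g19480), OsEMF2a (LOC_Os04g08034), OsEMF2b (LOC_Os09g13630), OsFIE1 (LOC_Os08g04290) and OsFIE2 (LOC_Os08g04270). Their IDs place OsiEZ1 on chromosome 3, OsEMF2a on chromosome 4, OsCLF on chromosome 6, both OsFIE genes on chromosome 8 and OsEMF2b on chromosome 9.

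PRC2 places methyl groups on lysine 27 of histone H3, and its trimethylated product, H3K27me3, marks genes that are held silent. The E(z)-class subunit carries the SET domain that transfers the methyl groups. It works only together with a zinc-finger subunit of the Su(z)12 class and a WD40-repeat subunit of the ESC class, which in plants are EMF2-type and FIE-type proteins. The complex also holds an MSI1-type subunit, which is not among the members. In grass inflorescences the complex is known for restraining flowering-time and floral homeotic genes until the right stage, and losing it disturbs floral organ identity.

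The study mapped histone marks in young panicles of field-grown rice and in wheat seedlings, across 26 samples. RNA was sequenced from young panicles of JZ1560, a japonica cultivar, in 1 library of paired reads with no treatment named in the labels. H3K27me3 was mapped in panicles of the same cultivar in 3 libraries, beside 1 input library of chromatin without enrichment. HHZ, the indica cultivar, is not compared here, since the RNA table holds JZ1560 alone. The labels do not say how many plants were pooled or at which panicle stage they were taken. With 1 RNA library there is no replicate error and no test. Every interval on a count is a 95% interval that covers counting error only, and reads that are PCR copies would make it too narrow.

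The RNA library held 7169403 counts on gene IDs, so that 1 count was worth 0.139 CPM (a gene's count divided by this library total, times 1000000). A count of 0 would have allowed up to 3 counts, or 0.418 CPM, and no member was near that limit. Of all IDs, 49514 (88.4%) had at least 1 count and are called detected here, with a median of 13 counts (1.81 CPM). The 6 members had a median of 447.5 counts (62.4 CPM). All 6 members had at least 10 counts, a level that 49.1% of all IDs reached. The count table pairs no ID with a gene name, and 0 of its IDs were found in the RefSeq table, so marker genes for panicle tissue and the other genes of the Polycomb pathway were not used here. Gene lengths were not used here either. Counts of different genes are therefore compared as shares of the library's reads, which grow with transcript length, and not as levels per length.

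Transcripts of the 3 subunit classes among the members, E(z), Su(z)12 and ESC, were present in the young panicle. OsCLF, OsiEZ1, OsEMF2a, OsEMF2b and OsFIE2 lay within a narrow band of 409 to 560 counts, and OsFIE1 stood well below them with 77 counts. The 6 genes together took 2422 counts, or 338 CPM (interval 325 to 352). The E(z)-class pair held 43.0% of these counts (41.0% to 44.98%, exact Clopper-Pearson), the Su(z)12-class pair 36.7% (34.8% to 38.7%) and the ESC-class pair 20.3% (18.7% to 22.0%). These are shares of reads, and the share of a class depends on the length of its transcripts.

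**Figure D1:**
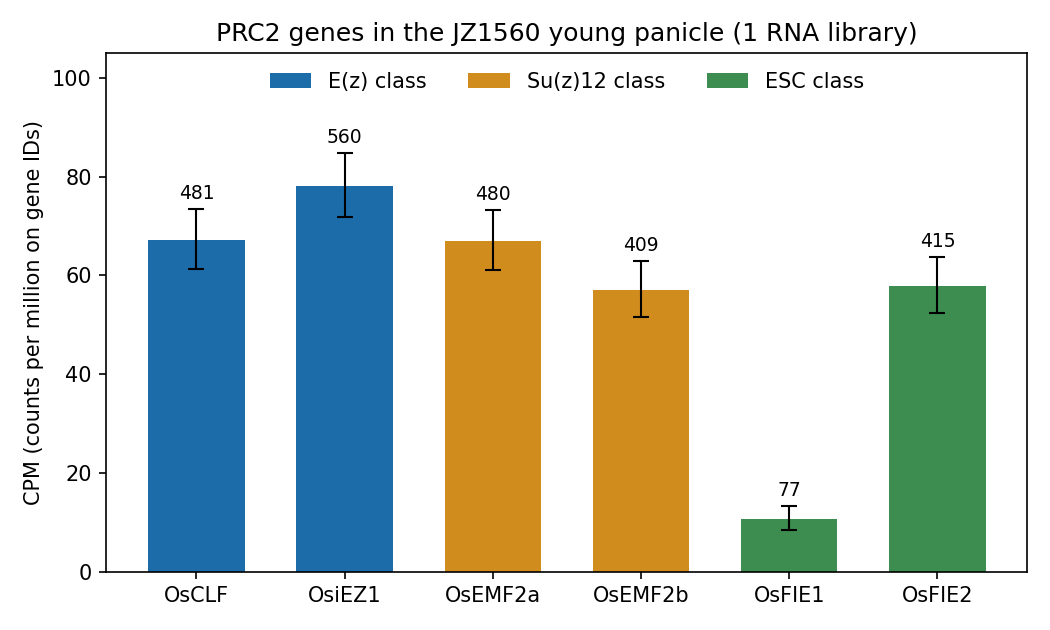
CPM on gene IDs (vertical axis) of the 6 PRC2 genes in the JZ1560 young panicle RNA library, with bars coloured by subunit class, exact Poisson 95% intervals as error bars and the raw count above each bar. OsCLF, OsiEZ1, OsEMF2a, OsEMF2b and OsFIE2 lie between 57.0 and 78.1 CPM, and OsFIE1 is at 10.7 CPM.

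Of the catalytic subunits, OsiEZ1 had more reads than OsCLF. OsiEZ1, the rice E(z)-class gene also known as SDG718, had 560 counts (exact Poisson interval 515 to 608), or 78.1 CPM (71.8 to 84.9). It ranked 3078 among all IDs and above 93.8% of the detected IDs. OsCLF, the rice counterpart of Arabidopsis CURLY LEAF and also known as SDG711, had 481 counts (439 to 526), or 67.1 CPM (61.2 to 73.4). It ranked 3729, above 92.4% of the detected IDs. In rice both genes are known for roles in the photoperiodic control of flowering. The ratio of OsCLF to OsiEZ1 counts was 0.859, with an exact conditional interval of 0.759 to 0.972, so the gap of 79 counts was larger than counting error. Equal levels per length would follow if the counted part of OsiEZ1 were 1.16 times as long as that of OsCLF (1.03 to 1.32).

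The Su(z)12-class genes were also close to each other. OsEMF2a had 480 counts (438 to 525), or 67.0 CPM (61.1 to 73.2), and ranked 3745, above 92.4% of the detected IDs. OsEMF2b, which is known for its part in floral organ and meristem development in rice, had 409 counts (370 to 451), or 57.0 CPM (51.7 to 62.9). It ranked 4501, above 90.9% of the detected IDs. The ratio of OsEMF2a to OsEMF2b counts was 1.17 (1.03 to 1.34). OsEMF2a thus took 54.0% of the reads of this pair (50.7% to 57.3%, Clopper-Pearson), and the lower bound lay just above an even split.

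The ESC-class genes differed most among the paralogue pairs. OsFIE2, the broadly expressed FIE gene of rice, had 415 counts (376 to 457), or 57.9 CPM (52.4 to 63.7). It ranked 4442, above 91.0% of the detected IDs, and so had a read share like that of OsEMF2b. OsFIE1, an imprinted gene known mainly from the endosperm, where the maternal copy is active, had 77 counts (60.8 to 96.2), or 10.7 CPM (8.48 to 13.4). It ranked 13930, above 71.7% of the detected IDs, and its count was 5.92 times the median of the detected IDs. Reads were therefore assigned to OsFIE1 in the panicle library, at a read share well under that of the other members.

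OsFIE2 had 5.39 times as many counts as OsFIE1 (exact conditional interval 4.22 to 6.97). OsFIE1 accounted for 15.7% of the reads of the pair (12.6% to 19.2%, Clopper-Pearson). For both to have the same level per length, the counted part of OsFIE2 would have to be at least 4.22 times as long as that of OsFIE1, the lower bound of the interval. The ratios of the other pairs needed a length difference of only 1.16 and 1.17 times. The table lists 0 reads under non-unique alignment, so how reads that match both FIE genes were treated cannot be seen, and the split between such paralogues is uncertain to that extent.

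**Figure D2:**
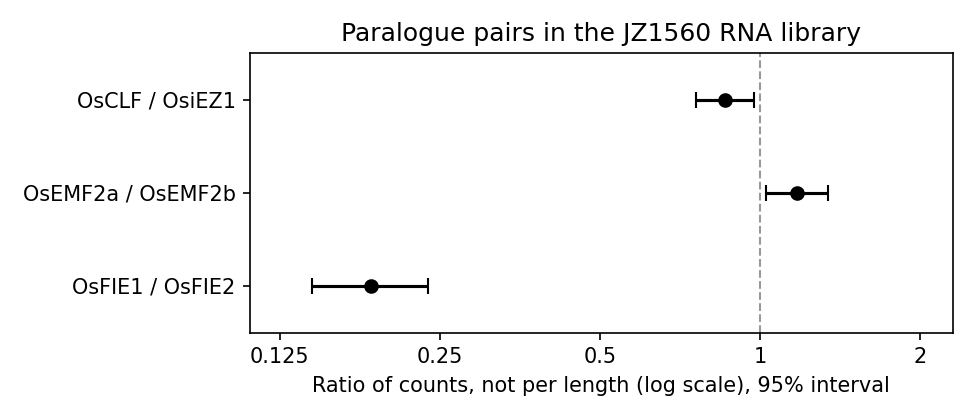
Ratio of raw counts within each paralogue pair (horizontal axis, log scale) in the JZ1560 RNA library, with points for the ratio, bars for the exact conditional 95% interval and a dashed line at equal counts. The ratios of OsCLF to OsiEZ1 (0.859) and of OsEMF2a to OsEMF2b (1.17) lie close to the line, and that of OsFIE1 to OsFIE2 (0.186) lies far to its left.

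In order of read share, OsiEZ1 came first, followed by OsCLF, OsEMF2a, OsFIE2, OsEMF2b and OsFIE1. Some neighbours in this order could not be told apart at this depth. OsCLF and OsEMF2a differed by 1 count, with a ratio of 1.002 (0.881 to 1.14). OsFIE2 and OsEMF2b differed by 6 counts, with a ratio of 1.01 (0.883 to 1.17). The remaining 13 of the 15 possible pairs had intervals that did not hold 1, among them all 5 pairs with OsFIE1. Apart from OsFIE1, the widest gap was that between OsiEZ1 and OsEMF2b, with a ratio of 1.37 (1.20 to 1.56). OsFIE1 was lower than its next neighbour in the order, OsEMF2b, by a factor of 5.31 (4.15 to 6.87). The intervals were not adjusted for the 15 pairs, and several lower bounds were close to 1, such as 1.01 for OsCLF and for OsEMF2a over OsFIE2.

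Against all gene IDs, OsCLF, OsiEZ1, OsEMF2a, OsEMF2b and OsFIE2 lay above the 90th percentile of detected IDs, which was 374 counts. The counting interval of OsEMF2b (370 to 451) reached below this cut, and that of OsFIE2 (376 to 457) began just above it. Among the IDs of its own chromosome OsEMF2b ranked 213 of 3407, OsEMF2a 288 of 5317, OsFIE2 292 of 4188, OsCLF 304 of 4709 and OsiEZ1 454 of 5568. OsFIE1 ranked 916 of 4188 on chromosome 8. It fell between the 75th percentile of detected IDs, at 103 counts, and their median of 13 counts. The highest count of any ID was 60357, so even OsiEZ1 had a read share far below the highest of the library.

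**Figure D3:**
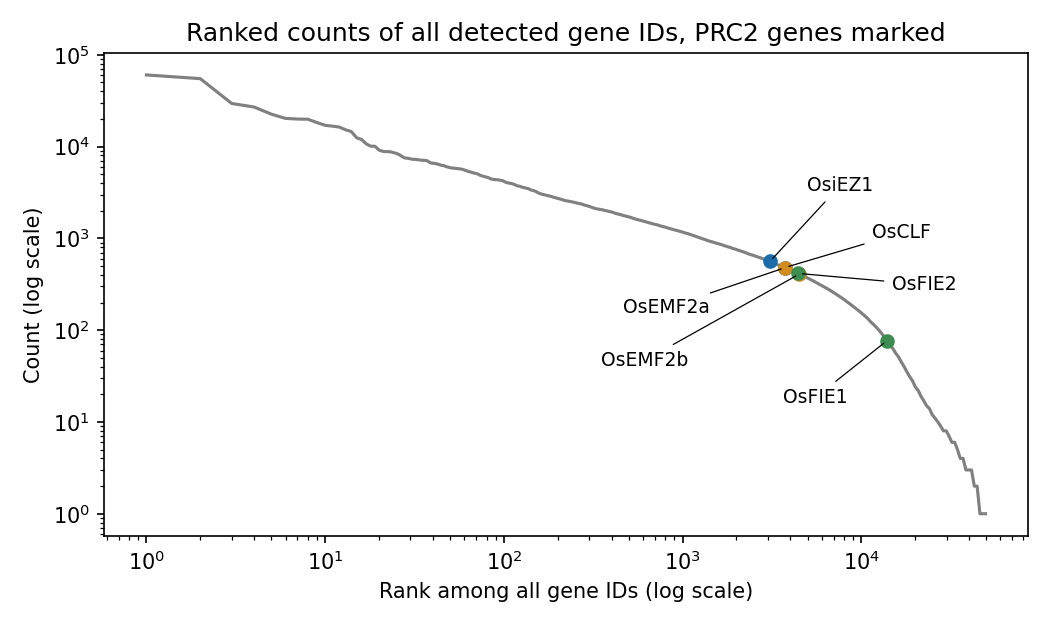
Counts of all detected gene IDs in the JZ1560 RNA library (vertical axis, log scale) against their rank (horizontal axis, log scale), with the 6 PRC2 genes as points coloured by subunit class, of which those of OsCLF and OsEMF2b are largely hidden under OsEMF2a and OsFIE2. OsCLF, OsiEZ1, OsEMF2a, OsEMF2b and OsFIE2 sit together at ranks 3078 to 4501, and OsFIE1 sits apart at rank 13930.

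The members ranked differently among the IDs around them. In the naming system of these IDs the numbers rise along each chromosome, so the 10 IDs before and the 10 after a member in the table are near it. OsCLF and OsEMF2a had the highest count of their windows, above all 20 neighbours. Each of them lay above 93.3% of all IDs, so few of any 20 IDs would be higher. The neighbours of OsEMF2a had a median of 3.5 counts, and 16 of 20 had fewer than 10. Those of OsCLF had a median of 11.5 counts and reached 351. Over all IDs, the median was 9 counts, and 49.1% had at least 10. OsiEZ1 lay in a richer stretch, where the median neighbour had 141.5 counts, and 4 of the 20 neighbours exceeded it, up to 1280 counts. Among these 4 was an ID with 592 counts, inside the counting interval of OsiEZ1 (515 to 608). Over all IDs, 94.5% had a lower count than OsiEZ1. OsEMF2b was exceeded by 4 of 20 neighbours, up to 4058 counts, although the median neighbour had 4.5. Among these 4 was an ID with 410 counts against 409 for OsEMF2b, which cannot be told apart at this depth. Over all IDs, 91.9% had a lower count than OsEMF2b.

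The FIE genes lie beside each other, with a single ID of the table, LOC_Os08g04280, between them. That ID had 614 counts (566 to 665), or 85.6 CPM (79.0 to 92.7), above both FIE genes. It had 7.97 times the counts of OsFIE1 (6.28 to 10.2) and 1.48 times those of OsFIE2 (1.30 to 1.68). On the far side of OsFIE1 the next IDs had 47 and 41 counts, and on the far side of OsFIE2 the next ID had 0 counts. Of the 20 IDs around OsFIE1, 5 exceeded its count, and the median was 6.5. Over all IDs, 74.997% had a lower count than OsFIE1, so the number of higher neighbours was near that share. Reads assigned to more than 1 feature made up 2.97% of all counts of the table and were not counted for any gene. Whether the high count beside OsFIE1 had a part in its reads was not tested.

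**Figure D4:**
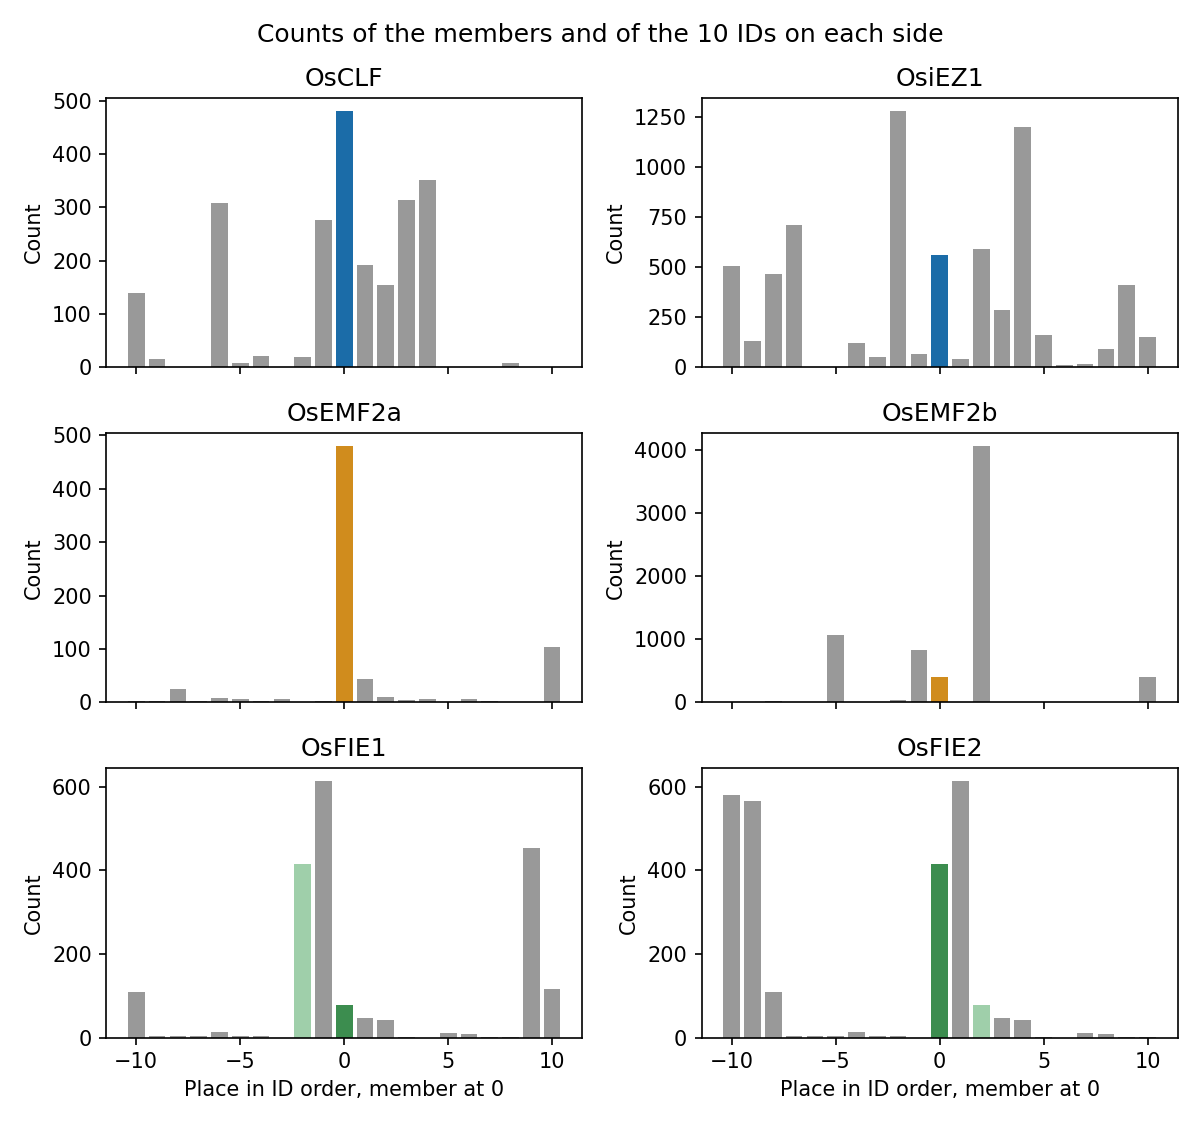
Raw counts (vertical axis, a separate scale per panel) of each PRC2 gene, in colour at place 0, and of the 10 gene IDs on each side in ID order (horizontal axis), with the other FIE gene in pale green in the OsFIE1 and OsFIE2 panels. OsCLF and OsEMF2a exceed all 20 neighbours, whereas OsFIE1, with 77 counts, stands next to an ID with 614 counts. Over all IDs, 93.3% had a lower count than OsCLF and 93.3% a lower count than OsEMF2a.

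The product of the complex was mapped in panicles of the same cultivar. The JZ1560 H3K27me3 libraries held 12299, 11383 and 11383 peaks in replicates 1, 2 and 3, which covered 15.9, 33.2 and 41.4 Mb. Replicates 2 and 3 had the same number of peaks but different covered lengths. Whether their peak lists were made independently was not tested. The mean covered length was 30.2 ± 13.01 Mb (SD, n = 3), with replicate 1 below the other replicates. The input library, which has no enrichment for the mark, had 22254 peaks over 44.3 Mb, more than any of the H3K27me3 lists. Among peaks of score 100 or more the order turned for replicates 2 and 3, with 24.6 Mb in the input against 10.5, 30.4 and 39.2 Mb in replicates 1, 2 and 3. The genome build of the peaks is not given in the sources at hand. Whether the PRC2 genes themselves lie under H3K27me3 was therefore not analysed here. Transcript counts of the subunits do not measure the amount or activity of the complex.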

How the data were processed

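The authors deposited the RNA data as raw counts for each gene ID, with the closing summary lines that HTSeq writes. Per the submitters' processing notes, HTSeq, TopHat2, BWA and FastQC were used, with no version or role stated. Build, annotation and strand setting: not given in the sources used here. The table also lists 26.1% of all its counts as without a feature and 2.97% as ambiguous; both were left out of the total behind CPM. Peaks were called with MACS for each library, per the file headers, and each has a score that the authors deposited on an undefined scale, used only as a filter of 100.

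Members were taken by ID, with names as given in the selection rule. Counts have exact Poisson intervals, ratios of counts exact conditional ones, and shares Clopper-Pearson ones (scipy 1.17.1), at a level of 95%. The interval and overlap code was tested on simulated data. Overlapping peaks were merged before covered length was taken. The genes named are the 6 members and the ID between the FIE genes. The rule for the members used IDs alone, but it and the lists were set with earlier results of these data known. The planned lists of related genes and tissue markers, and the ratios per coding length, were not used because no reference used here links these IDs to names or lengths.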

Additional observations from a re-analysis of the deposited data

How the results depend on the processing

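With all counts of the table as the total, CPM fell to 47.6 for OsCLF, 55.4 for OsiEZ1, 47.5 for OsEMF2a, 40.5 for OsEMF2b, 7.62 for OsFIE1 and 41.1 for OsFIE2, which leaves every ratio between members as it was. Without the 10 highest IDs in the total, each CPM stayed inside its counting interval. Those IDs held 4.04% of the counts, so each CPM could rise only by a small step, and this is no check on the members. Among all IDs, the percent with a lower count was 93.3 for OsCLF, 94.5 for OsiEZ1, 93.3 for OsEMF2a, 91.9 for OsEMF2b, 74.997 for OsFIE1 and 92.1 for OsFIE2. Among IDs with at least 10 counts it was 86.4 for OsCLF, 88.8 for OsiEZ1, 86.4 for OsEMF2a, 83.6 for OsEMF2b, 49.1 for OsFIE1 and 83.8 for OsFIE2, so that OsFIE1 lay in the middle of that set. These shifts follow from the sets and totals chosen. With 1 count added to both members, each of the 3 paralogue ratios stayed inside its interval. Counts of 77 or more fix this outcome in advance, since the ratio of OsFIE1 to OsFIE2 moved only from 0.186 to 0.188. The mean H3K27me3 covered length ranged from 24.6 to 37.3 Mb with 1 replicate left out and was 26.7 Mb with peaks of score 100 or more. Ratios per coding length were not run. No paired analysis was possible because the RNA data are 1 library and the H3K27me3 values come from no test. Depth limits the 2 closest pairs, OsCLF with OsEMF2a and OsFIE2 with OsEMF2b.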
